A study of Mus musculus with 2 samples.

Results

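The miR-99/100, let-7 and miR-125 tricistrons are 3 paralogous gene clusters, each with 1 member of the miR-99/100, let-7 and miR-125 families in that order. The members were chosen by gene symbol: Mir99a, Mirlet7c-1 and Mir125b-2 on chromosome 16, Mir100, Mirlet7a-2 and Mir125b-1 on chromosome 9, and Mir99b, Mirlet7e and Mir125a on chromosome 17. All 9 were found, out of 2202 microRNA (miRNA) genes in the files. The short RNA of adrenal glands had been sequenced from 10-day-old male mice of the strain B6CASTF1/J, a first-generation hybrid of C57BL/6 and CAST/EiJ mice. There was 1 group of 2 libraries, numbered biological replicates 1 and 2, with no treatment and no other condition. The labels number the males differently but give both the same donor record, and do not state whether glands of several animals were pooled. Values below are reads on the gene's own strand, as counts or as CPM (counts scaled to 1e6 reads assigned to miRNA genes on their own strand).

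MiRNAs are cut from hairpin transcripts and guide silencing complexes to messenger RNAs, mostly through their seed, bases 2 to 8. The let-7 family and the miR-125 family, whose worm relative is lin-4, were found as regulators of developmental timing, and let-7 is known for its rise as cells differentiate and for the block of its maturation by the RNA-binding protein LIN28. The miR-99/100 family is known for targeting mTOR and the IGF1 receptor. Genes of 1 cluster are thought to be made from a common primary transcript, while the level of each mature miRNA also depends on its own processing and stability.

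The sequences are shown first because the levels below divide by whether a 5p sequence, the mature miRNA from the 5′ arm of the hairpin, belongs to 1 gene or to more than 1. They come from RefSeq tables of the GRCm38.p6 build, run 5′ to 3′, and carry the seed in capitals. The miR-99/100 members have different 5p sequences with a common seed.
miR-99a-5p (Mir99a): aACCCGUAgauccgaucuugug
miR-100-5p (Mir100): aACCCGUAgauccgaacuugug
miR-99b-5p (Mir99b): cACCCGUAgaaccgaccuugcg
Counted from 1 at the 5′ end, miR-100-5p differs from miR-99a-5p by the single substitution U16A, and miR-99b-5p differs from miR-99a-5p by A1C, U11A, U16C and U21C. No other gene in the table has this seed.

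The let-7 members have a seed in common with the other let-7 genes and with Mir98.
let-7c-5p (Mirlet7c-1, and the identical Mirlet7c-2): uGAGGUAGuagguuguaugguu
let-7a-5p (Mirlet7a-2, and the identical Mirlet7a-1): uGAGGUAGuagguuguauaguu
let-7e-5p (Mirlet7e): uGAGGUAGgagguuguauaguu
From let-7c-5p to let-7a-5p the substitution is G19A, and from let-7a-5p to let-7e-5p it is U9G. The table lists let-7a-5p for Mirlet7a-1, and the identical run was found in the hairpin of Mirlet7a-2. The hairpin of Mirlet7c-1 has a run of 23 bases in common with that of Mirlet7c-2, and the hairpin of Mirlet7a-2 one of 23 bases with that of Mirlet7a-1.

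The miR-125 members yield 2 different 5p sequences between them.
miR-125b-5p (Mir125b-1 and Mir125b-2, identical): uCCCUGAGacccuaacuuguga
miR-125a-5p (Mir125a): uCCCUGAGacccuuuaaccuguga
These are 22 and 24 bases long and are identical over their first 13 bases. The 3p sequences, from the other arm, differ between the 9 members. Those of the 4 members whose 5p sequence also occurs in another gene are shown because they tell such genes apart.
let-7c-1-3p (Mirlet7c-1): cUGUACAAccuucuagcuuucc
let-7a-2-3p (Mirlet7a-2): cUGUACAGccuccuagcuuuc
miR-125b-2-3p (Mir125b-2): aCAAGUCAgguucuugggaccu
miR-125b-1-3p (Mir125b-1): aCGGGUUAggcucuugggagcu
The files give 1 count per gene and do not tell the 2 arms apart.

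By the GENCODE M21 annotation of mm10, all 9 genes lie on the plus strand. On chromosome 16, Mir99a (ENSMUSG00000065530.1, 77598936 to 77599000) is followed after 656 bases by Mirlet7c-1 (77599657 to 77599750) and after a further 46522 bases by Mir125b-2 (77646273 to 77646343), all in introns of the long noncoding RNA gene Mir99ahg. On chromosome 9, Mir100 (ENSMUSG00000093011.1, 41531425 to 41531504), Mirlet7a-2 (41536716 to 41536811) and Mir125b-1 (41581926 to 41582002) lie in introns of 3110039I08Rik and Gm49317, and Mir125b-1 also overlaps an exon of Gm28119. The gaps there are 5211 and 45114 bases. On chromosome 17 the cluster spans 692 bases, against 47408 on chromosome 16 and 50578 on chromosome 9. Its genes Mir99b (ENSMUSG00000065396.1, 17830188 to 17830257) and Mirlet7e (17830352 to 17830444) lie in introns and Mir125a (17830812 to 17830879) overlaps an exon of the gene Spaca6. Of the 9 members, Mirlet7e is the one with an annotated miRNA gene, Gm25927, on the opposite strand at the same place.

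The 2 libraries held 2843734 and 3080062 own-strand reads on miRNA genes, where 3 counts correspond to 1.05 and 0.974 CPM. Multiply mapped reads, listed apart from the genes, were 27.5% of all reads of replicate 1 and 25.9% of those of replicate 2. No miRNA listed here marks the adrenal gland alone. Of the 6 miRNAs listed for neuroendocrine cells, such as those of the medulla, all 6 had counts in both libraries. They had 41327 and 39185 CPM in all, mostly from Mir375 (34145 and 34383 CPM). Mir375 did not pass the exact test described below. Of the others, Mir132 was higher in replicate 2, with a log2 ratio of replicate 2 to replicate 1 of 0.53. Mir7b (-0.76), Mir137 (-0.74), Mir7-1 (-0.67) and Mir7-2 (-1.19) were lower. The libraries also differed in miRNAs of other cells. The hepatocyte miRNA Mir122 had 29424 CPM in replicate 1 and 97850 in replicate 2, and the endothelial Mir126a 84263 and 45250 CPM. The 6 listed for striated muscle, 4 of them with counts in both libraries, had 925 and 3331 CPM, mostly from Mir206 (919 and 3305 CPM). Smooth muscle and fibroblast miRNAs (4 genes) had 40292 and 34060 CPM in all, where Mir143 was lower in replicate 2 and Mir145a and Mir214 were higher. Red cell miRNAs (2 genes) had 584 and 276, with Mir451a lower and Mir486 higher. Leukocyte miRNAs (3 genes) had 826 and 1294, of which Mir150 alone passed the test. Those of epithelia (4 genes) had 1209 and 1039, with Mir203 lower and Mir200a, Mir200b and Mir205 higher. In whole glands a different number of cells of a type and a different amount of a miRNA per cell cannot be told apart.

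The 9 members held 4.30% of the assigned reads in replicate 1 (exact 95% Clopper-Pearson interval 4.28 to 4.32) and 3.66% in replicate 2 (3.64 to 3.68), a mean of 3.98% ± 0.45 (SD, n = 2). Such intervals cover counting error only. The Mir99b cluster had 1.98% in replicate 1 and 2.10% in replicate 2, a mean of 2.04% ± 0.08. The Mir99a cluster had 1.93% and 1.24%, a mean of 1.58% ± 0.49. The 2 clusters were nearly level in replicate 1 and apart in replicate 2. The Mir100 cluster was the lowest in both libraries, with 0.390% and 0.320% and a mean of 0.355% ± 0.049. In the Mir99a and Mir100 clusters the let-7 and miR-125 genes have a 5p sequence that another gene also has. Multiply mapped reads are left out of all these totals, which therefore do not rank the clusters by amount of miRNA.

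Mir99a was the most abundant member, with 53042 counts (18652 CPM, rank 18 of all genes) in replicate 1 and 35951 counts (11672 CPM, rank 21) in replicate 2. Its paralog Mir99b had 20779 and 15472 counts, or 7307 and 5023 CPM. Mir100 had 9689 and 8289 counts, or 3407 and 2691 CPM. In both libraries the order in the family was thus Mir99a, Mir99b, Mir100. For each read of Mir100 there were 5.47 of Mir99a in replicate 1 and 4.34 in replicate 2, for 5p sequences 1 base apart. Mir99a made up 61.9% ± 2.3 (SD, n = 2) of the reads of the family, Mir99b 25.4% ± 0.7 and Mir100 12.7% ± 1.6.

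Among the let-7 members, Mirlet7e stood far above the others, with 20914 counts (7354 CPM) in replicate 1 and 34021 counts (11046 CPM) in replicate 2. Mirlet7c-1 had 1179 and 1504 counts, or 415 and 488 CPM. Mirlet7a-2 had the lowest level of all members, with 394 and 459 counts, or 139 and 149 CPM. Mirlet7e therefore held 93.8% ± 1.1 (SD, n = 2) of the reads of these 3 genes. This is a share of gene counts and not of the let-7 miRNAs. The 5p sequences of Mirlet7c-1 and Mirlet7a-2 also occur in Mirlet7c-2 and Mirlet7a-1, and multiply mapped reads are left out. Of the counts assigned to all 14 genes in the files with the let-7 seed, the 3 members gave 3.95% in replicate 1 and 5.55% in replicate 2. The other let-7 genes together had 19.2% and 19.9% of all assigned reads.

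Among the miR-125 members, Mir125a had 14665 and 15225 counts, or 5157 and 4943 CPM. Mir125b-1 had 1000 and 1113 counts, or 352 and 361 CPM. Mir125b-2 had 607 and 622 counts, or 213 and 202 CPM. The family was the steadiest across the libraries, with 0.572% and 0.551% of the assigned reads. Mir125a took 89.9% ± 0.3 (SD, n = 2) of it, Mir125b-1 6.35% ± 0.29 and Mir125b-2 3.70% ± 0.04. Mir351, an X-linked gene with the miR-125 seed, had 4473 and 5465 CPM, so that the 3 members gave 56.1% and 50.2% of the counts assigned to genes with this seed. These shares, like those within the family, are of gene counts. Both arms are included and multiply mapped reads left out, so the shares are not those of the miRNAs that carry the seed. The other 2 genes with this seed, Mir6367 and Mir6394, had 0 counts.

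**Figure D1:**
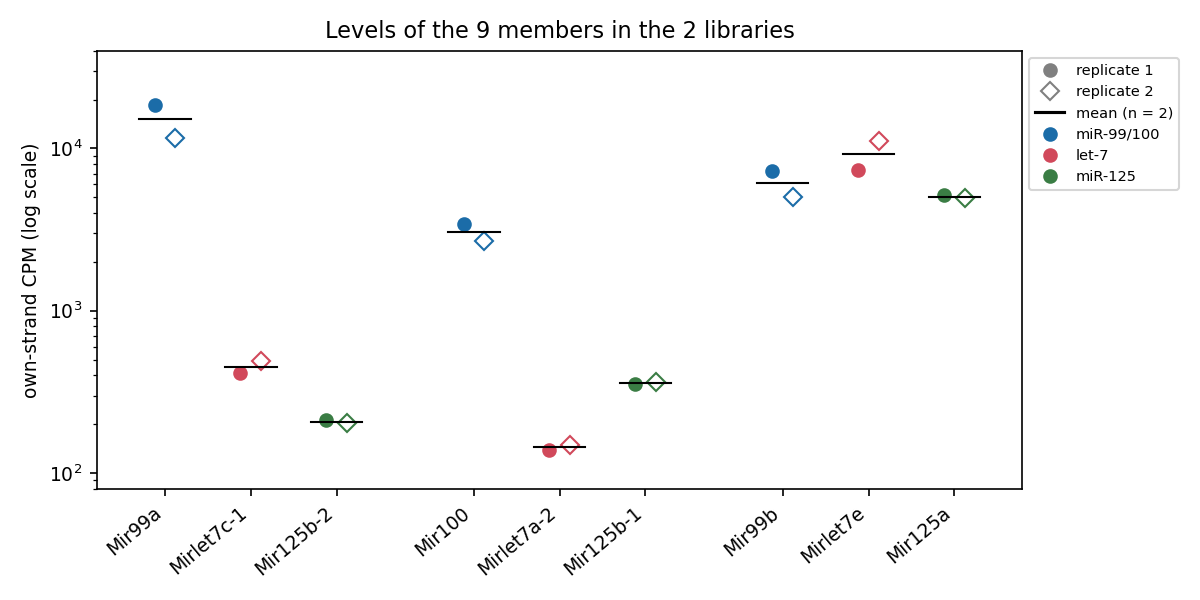
Own-strand CPM on a log axis for the 9 members, grouped by cluster, with a filled circle for replicate 1, an open diamond for replicate 2 and a bar for their mean. The first gene of each cluster lies at or above 2691 CPM, while let-7 and miR-125 members reach that range in the Mir99b cluster only.

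The members kept 1 order in both libraries: Mir99a, Mirlet7e, Mir99b, Mir125a, Mir100, Mirlet7c-1, Mir125b-1, Mir125b-2, Mirlet7a-2. Of the 8 pairs of neighbours in this order, 3 had overlapping ranges of mean ± SD, namely Mir99a with Mirlet7e, Mirlet7e with Mir99b, and Mir99b with Mir125a. The counting intervals of Mirlet7e (7255 to 7454 CPM) and Mir99b (7208 to 7407 CPM) also overlapped in replicate 1. Those of Mir99b (4945 to 5103 CPM) and Mir125a (4865 to 5022 CPM) overlapped in replicate 2. A read here is a whole short RNA, so counts were not divided by gene length, and the order per hairpin base, for hairpins of 65 to 96 bases, was the same.

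The 5 members with a 5p sequence of their own lay between 2691 and 18652 CPM in the libraries. The 4 whose 5p sequence also occurs in another gene, Mirlet7c-1, Mir125b-1, Mir125b-2 and Mirlet7a-2, lay between 139 and 488 CPM. The groups did not overlap, and by mean the lowest of the first, Mir100, was 6.75 times the highest of the second, Mirlet7c-1. A read of exactly the 22 bases of let-7c-5p, let-7a-5p or miR-125b-5p matches more than 1 gene, and multiply mapped reads are listed apart from these counts. The counts of the 4 genes are thus no measure of the amount of let-7c, let-7a or miR-125b. Multiply mapped reads numbered 2065487 in replicate 1 and 2308583 in replicate 2, or 16.9 and 20.5 for each read assigned to the 9 members. How many of them came from the members was not tested, since the files give only their total.

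The 9 other let-7 genes showed the same order of levels among themselves, with 1 gene of the lower group at the level of Mir100. Mirlet7b, Mirlet7d, Mirlet7g, Mirlet7i and Mir98, with sequences of their own, ranged from 3543 to 78310 CPM. Mir7k and Mir1961, which also have the let-7 seed and a sequence of their own, had 0 counts in both libraries. They are not among the 9 genes. Mirlet7a-1, Mirlet7c-2, Mirlet7f-1 and Mirlet7f-2, with a mature sequence also found in another gene, ranged from 113 to 2913 CPM. Mirlet7f-2 was the highest of these at 2901 ± 17 CPM (SD, n = 2), close to Mir100 at 3049 ± 506. In replicate 2 Mirlet7f-2 was above Mir100, with 2913 against 2691 CPM. Over all genes with a sequence entry the medians did not follow this order. The median level was 7.97 CPM for the 103 genes with a repeated mature sequence of either arm and 0.514 CPM for the other 915. For the members the medians were 282 and 6165 CPM. A mean of at least 100 CPM was reached by 26 of the 103 genes (25.2%) and 161 of the 915 (17.6%). All 9 members and the 9 other let-7 genes reached that level, but Mir7k and Mir1961 did not. This share therefore cannot show the order among those that did.

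**Figure D2:**
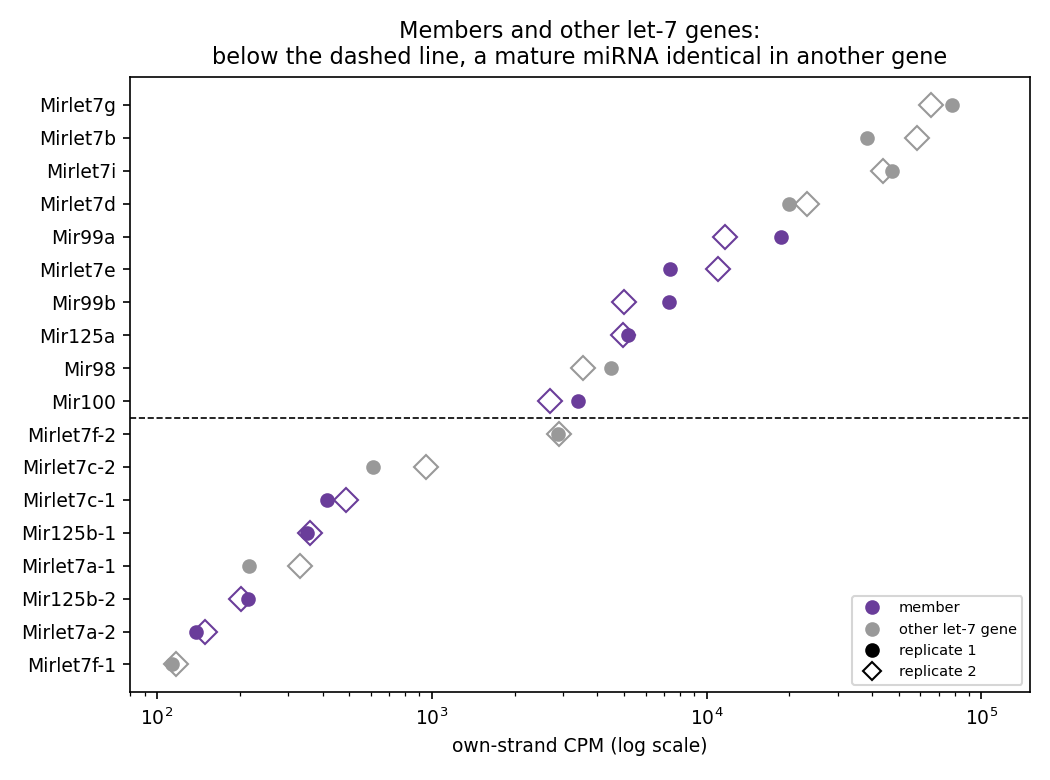
Own-strand CPM on a log axis for the 9 members (purple) and the 9 other let-7 genes (grey), with filled circles for replicate 1 and open diamonds for replicate 2. Genes below the dashed line have a mature miRNA that is identical in another gene; members below it lie between 139 and 488 CPM and members above it between 2691 and 18652 CPM.

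The 3 clusters differed in their make-up. Mir99a gave 96.7% of the reads of its cluster in replicate 1 and 94.4% in replicate 2, with Mirlet7c-1 at 2.15% and 3.95% and Mir125b-2 at 1.11% and 1.63%. Mir100 gave 87.4% and 84.1% of its own, with Mir125b-1 at 9.02% and 11.3% and Mirlet7a-2 at 3.55% and 4.65%. In both of these clusters the miR-99/100 gene is the one member with a 5p sequence of its own. In the Mir99b cluster, where each 5p sequence occurs once, the members were of like size: Mir99b gave 36.9% and 23.9%, Mirlet7e 37.1% and 52.6%, and Mir125a 26.0% and 23.5%.

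**Figure D3:**
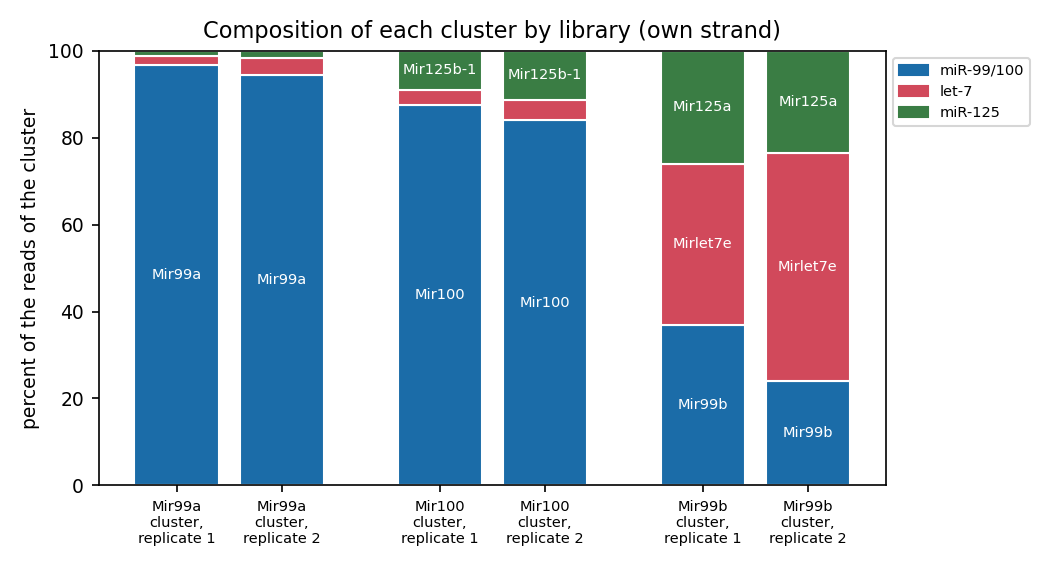
Stacked bars give the percent of each cluster's own-strand reads taken by its 3 members, 1 bar per cluster and library, coloured by family. The miR-99/100 gene takes between 84.1% and 96.7% in 2 clusters, and in the Mir99b cluster the part of Mirlet7e is 37.1% in replicate 1 and 52.6% in replicate 2.

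Between the 2 libraries, members of the miR-99/100 family differed in 1 direction in all 3 clusters. All 3 miR-99/100 members were lower in replicate 2, with log2 ratios of replicate 2 to replicate 1 of -0.68 for Mir99a, -0.54 for Mir99b and -0.34 for Mir100. All 3 let-7 members had positive ratios, 0.59 for Mirlet7e, 0.24 for Mirlet7c-1 and 0.10 for Mirlet7a-2, and the last did not pass the test. The miR-125 members had ratios of -0.08 for Mir125b-2, 0.04 for Mir125b-1 and -0.06 for Mir125a, and the sign of each of these 3 turned under another scaling. Within families the ratios spanned 0.34 (miR-99/100), 0.48 (let-7) and 0.12 (miR-125) on the log2 scale, and within clusters 0.91 (Mir99a cluster), 0.45 (Mir100 cluster) and 1.13 (Mir99b cluster). The span of the let-7 family was thus wider than that of the Mir100 cluster. These spans were noticed in these values and rest on 2 libraries, so they are given as a description with no test.

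The test was an exact two-sided binomial test of each gene's counts in the 2 libraries, with Benjamini-Hochberg adjustment over all 444 genes with at least 10 counts, and it sets the difference between these libraries against counting error only. It called 6 of the 9 members, against 59.0% of all tested genes. The exact test's p for Mir99a and Mirlet7e was below what the computation can represent. Higher in replicate 2 were Mirlet7e and Mirlet7c-1 (adjusted p = 6.13e-05), or 2 of 9 against 28.6% of all. Lower were Mir99a, Mir99b (adjusted p = 4.76e-275), Mir100 (adjusted p = 2.11e-55) and Mir125a (adjusted p = 0.000557), or 4 of 9 against 30.4%. The adjusted p of the exact test was 0.403 for Mirlet7a-2, 0.427 for Mir125b-2 and 0.635 for Mir125b-1, which had between 394 and 1113 counts in a library. Mir125a passed at a ratio of 0.959, and with Mir122 left out of the totals its log2 ratio was 0.04, while the median over all tested genes went from 0.07 to 0.17. Its place among the lower members therefore depends on the scaling. No member was 2-fold apart, while 22.3% of all tested genes were. That share includes genes with few counts, whereas no member had fewer than 394 counts in a library. With at least 100 counts over both libraries, 51 genes were 2-fold apart, against 99 with at least 10. Fewer genes are tested at the higher minimum, so these counts are not shares of the same total. Of all called genes 127 were higher and 135 lower, against 143 and 109 with Mir122 left out and 117 and 145 with TMM factors. The median log2 ratio was -0.06 over the members and 0.07 over all tested genes. Regardless of sign, its median was 0.24 over the members and 0.56 over all tested genes, and 0.46 over the 184 genes at or above the level of Mirlet7a-2. Of those 184 genes 89.7% were called. Over the 49 genes at or above the level of Mir100 this median was 0.39, and 98.0% were called. The 5 members at that level were Mir99a (-0.68), Mirlet7e (0.59), Mir99b (-0.54), Mir100 (-0.34) and Mir125a (-0.06). The other 4 members, whose 5p sequence also occurs in another gene, lay between -0.08 and 0.24.

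**Figure D4:**
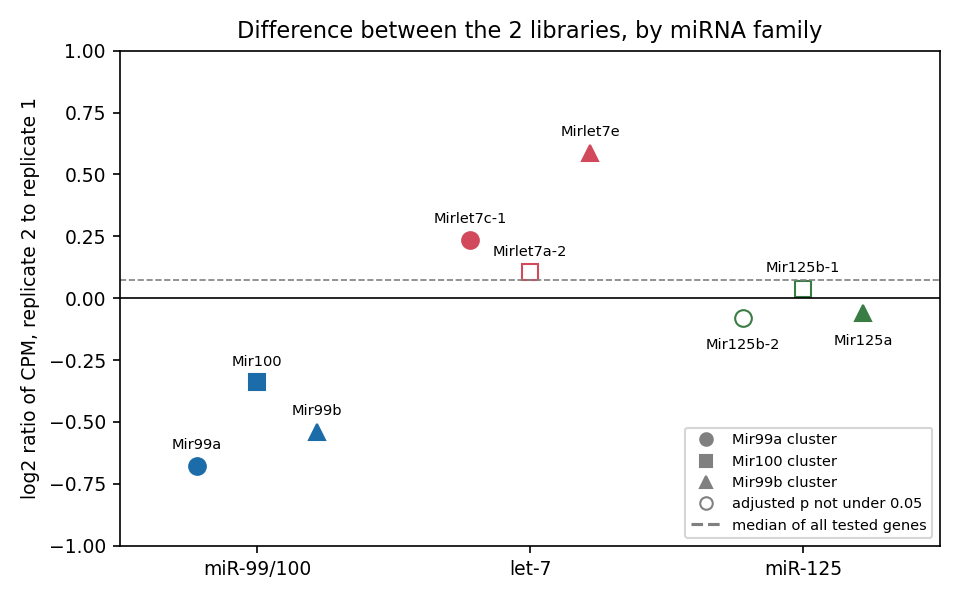
Log2 ratio of CPM in replicate 2 to replicate 1 for the 9 members, placed by family, with the marker shape giving the cluster and open markers an adjusted p not under 0.05. The miR-99/100 members lie between -0.68 and -0.34, the let-7 members between 0.10 and 0.59 and the miR-125 members between -0.08 and 0.04, each of which turned sign under another scaling; the dashed line is the median of all tested genes, 0.07.

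**Figure D5:**
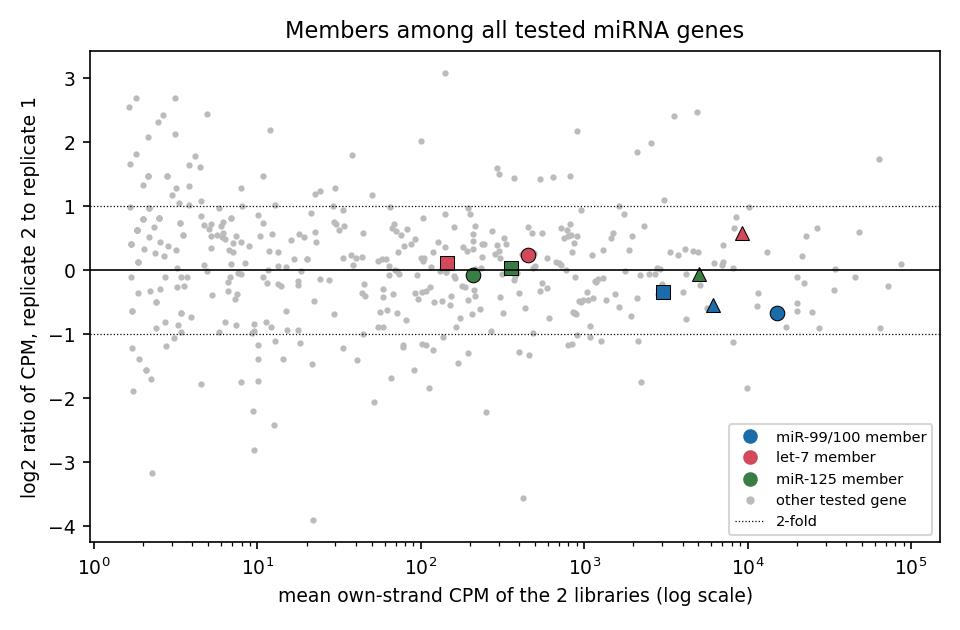
Log2 ratio of CPM in replicate 2 to replicate 1 against mean own-strand CPM on a log axis for the 444 tested genes (grey), with the members coloured by family and dotted lines at 2-fold. All members lie between the dotted lines, from -0.68 to 0.59.

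Ratios of reads between members of 1 cluster do not depend on the library total. In each cluster the miR-99/100 gene was lower in replicate 2 when set against the let-7 gene. There were 45.0 reads of Mir99a for each of Mirlet7c-1 in replicate 1 (exact 95% interval 42.5 to 47.7) and 23.9 in replicate 2 (22.7 to 25.2). For Mir100 and Mirlet7a-2 the ratio was 24.6 (22.2 to 27.3) and 18.1 (16.4 to 19.9). For Mir99b and Mirlet7e it was 0.994 (0.975 to 1.01) and 0.455 (0.446 to 0.464), the largest change of the 3. In no cluster did the intervals of the 2 libraries overlap.

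Against the miR-125 gene the miR-99/100 gene was also lower in replicate 2 in each cluster. Mir99a had 87.4 reads for each of Mir125b-2 in replicate 1 (80.7 to 94.8) and 57.8 in replicate 2 (53.4 to 62.7). Mir100 had 9.69 (9.08 to 10.4) and 7.45 (6.99 to 7.94) for each of Mir125b-1. Mir99b had 1.42 (1.39 to 1.45) and 1.02 (0.994 to 1.04) for each of Mir125a. The let-7 gene set against the miR-125 gene was higher in replicate 2 in 2 clusters: Mirlet7e had 1.43 (1.40 to 1.46) and 2.23 (2.19 to 2.28) reads for each of Mir125a, and Mirlet7c-1 1.94 (1.76 to 2.15) and 2.42 (2.20 to 2.66) for each of Mir125b-2. In the Mir100 cluster the intervals overlapped, with 2.54 (2.26 to 2.86) and 2.42 (2.17 to 2.71) reads of Mir125b-1 for each of Mirlet7a-2. The miRNAs of liver, striated muscle and endothelium differed between the same libraries by the values given above, and their part in these ratios was not tested.

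Relatives outside the clusters were compared in the same way. The miR-10 genes resemble miR-99/100 in sequence but have another seed.
miR-10a-5p (Mir10a): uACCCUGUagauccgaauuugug
miR-10b-5p (Mir10b): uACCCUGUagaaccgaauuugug
With miR-100-5p, the longest run in common is 11 bases for miR-10a-5p and 5 bases for miR-10b-5p. Runs in common with miR-99a-5p and miR-99b-5p were not computed, and by the sequences shown miR-10b-5p has a longer one with miR-99b-5p. Both genes were lower in replicate 2, Mir10a by a log2 ratio of -0.65 (30132 and 19211 CPM) and Mir10b by -0.35 (12914 and 10127 CPM). Of the 9 other let-7 genes, 4 were higher in replicate 2, 3 were lower and 2 did not pass the exact test. Their sum was 1.03 times as high in replicate 2 as in replicate 1, against 1.48 times for the 3 let-7 members. Mirlet7c-2 (0.63), Mirlet7a-1 (0.62), Mirlet7b (0.60) and Mirlet7d (0.22) were higher on the log2 scale, and Mir98 (-0.34), Mirlet7g (-0.25) and Mirlet7i (-0.11) were lower. Mirlet7f-1 and Mirlet7f-2 had ratios of 0.05 and 0.01. Mir351 was higher, with a log2 ratio of 0.29.

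By level in both libraries (distance of log2(CPM + 1) over the 2 libraries), the genes nearest to Mir99a were Mir23a at a distance of 0.26 and Mir10b at 0.57. Nearest to Mir100 were Mir28a (0.09) and Mir107 (0.16), and nearest to Mirlet7e were Mir379 (0.23) and Mir30d (0.26). With 2 points per gene this is a likeness of level and of 1 difference.

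Counting without strand changed 1 member. Mirlet7e had 0 counts without strand in both libraries, against 20914 and 34021 on its own strand. Its opposite-strand partner Gm25927 had 0 reads on its own strand, and the same 20914 and 34021 reads were listed as its opposite-strand reads. The other 8 members had identical counts with and without strand, and all 9 had 0 reads on the opposite strand. Without strand the order of the leading clusters turned, with a mean of 1.96% for the Mir99a cluster and 1.39% for the Mir99b cluster. The Mir99b cluster then consisted of Mir99b (58.6% in replicate 1 and 50.4% in replicate 2) and Mir125a (41.4% and 49.6%).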

How the data were processed

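The authors deposited raw read counts per miRNA gene for each of the 2 libraries, made on mm10 with GENCODE M21, per the file descriptions. How the reads were aligned, filtered and counted is not given in the sources used here. Of the 3 columns of counts, the column on the gene's own strand was the main one, and the column without strand was a check. The 4 rows of unassigned reads stayed out of totals. On the own strand they held 26.4% and 32.0% unmapped, 27.5% and 25.9% multiply mapped, and 8.22% and 7.54% outside genes, in replicates 1 and 2.

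CPM, shares with exact Clopper-Pearson intervals, and log2 ratios with 0.5 counts added were computed from the counts. The exact binomial test covered all 444 genes whose counts in the 2 libraries sum to 10 or more, at an adjusted p of 0.05. The replicates share 1 group, so no model across conditions could be fitted, and the files record no molecular identifiers. Named were the 9 members, the overlapping partner, listed relatives, genes with a member's seed, and the 2 genes nearest in level to each cluster's leading member. The members and lists were chosen with earlier results of these data known. Of 2202 genes, 1032 matched a RefSeq sequence entry by symbol, with mature sequences for all 9 members and hairpins for 7.

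Alternatives were the column without strand, TMM and DESeq2 factors, other count minimums and pseudocounts, all reads as the total, Mir122 left out, and single replicates. Python 3.11.15 with scipy 1.17.1, pandas 2.3.3, numpy 2.4.6 and matplotlib 3.10.9 was used, and DESeq2 1.42.0 and edgeR 4.0.16 in R 4.3.3 gave the scaling factors.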

Additional observations from a re-analysis of the deposited data

Results flagged for a closer look

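Multiply mapped reads, which belong to no gene in the files, were 27.5% of the reads of replicate 1 and 25.9% of those of replicate 2. At Gm25927, the gene opposite Mirlet7e, 20914 opposite-strand reads were listed in replicate 1 and 34021 in replicate 2, the same numbers as the own-strand reads of Mirlet7e.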

How the results depend on the processing

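With 2 libraries of 1 group, no spread between conditions can be set beside these values. With all reads of the file as the total, the members held 1.45%, the Mir99a cluster 0.579%, the Mir100 cluster 0.129% and the Mir99b cluster 0.739%, because the total then includes unassigned reads. Counted without strand, the Mir100 cluster had 0.439%, the Mir99a cluster 1.96% and the Mir99b cluster 1.39%, in which Mirlet7e had 0%, Mir99b 54.5% and Mir125a 45.5% of the reads. The Mir99a and Mir100 clusters kept their counts, and their shares rose because the total was smaller, at 2248772 reads in replicate 1 and 2566634 in replicate 2. Reads listed as ambiguous without strand were 7.93% and 5.77% of all reads. With Mir122 left out of the total, the Mir99b cluster had 2.19%, against 2.04%. Genes 2-fold apart numbered 324 with at least 1 count and 51 with at least 100 counts, against 99, each out of a different number of tested genes. The log2 ratio of Mir125b-1 was -0.036 without strand, -0.033 with TMM factors and -0.035 with DESeq2 factors, against 0.04. With Mir122 left out, 7 members passed the test, against 6. Mir125b-1 passed at 0.14, while Mir125b-2 had 0.025 and Mir125a 0.044. The number of members called lower in replicate 2 thus depends on the scaling. The miR-99/100 and let-7 members kept their direction under all scalings run, though Mirlet7a-2 was at 0.033 with TMM factors, and Mirlet7e has no value without strand. Single replicates lie within the SD of shares by construction.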
